A study of Homo sapiens with 36 samples.

Results

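The triple-negative breast cancer cell lines SUM159PT and BT549, grown without a MEK inhibitor, were compared: SUM159PT, with 3 arrays, and BT549, with 3 arrays, out of 36 arrays in all. The 6 arrays were chosen by their titles, which name the line, the control siRNA and the replicate letter A, B or C. The study they belong to asked how expression changes after MEK inhibition with selumetinib or after knockdown of DUSP4, a phosphatase that removes the activating phosphates from ERK, in MDA231, SUM159PT and BT549. Each line had 4 groups of 3 arrays. All cells received 10 nM siRNA and were harvested 96 h later. The 6 arrays compared here came from cells given a non-targeting siRNA pool and DMSO, the solvent of selumetinib. They are therefore transfected, solvent-treated cells and not untouched cultures. The other groups used below had siRNA against DUSP4, or the non-targeting pool with 1 uM selumetinib for 4 or 24 h. SUM159PT cells were grown in a DMEM/F12 mix with 5% serum and 0.5 ug/mL hydrocortisone. BT549 cells were grown in RPMI with 10% serum and no listed hormone, so line and medium cannot be told apart in any difference below. Each line is a single established culture, and nothing in the labels says that the letters mark separate cultures. Each p-value therefore takes in no more than the scatter among replicate arrays, which may be technical. That scatter was pooled over the 12 groups of all 36 arrays.

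Triple-negative breast cancers lack the estrogen and progesterone receptors and amplified HER2, and the lines studied here belong to its mesenchymal, claudin-low kind. Such tumours commonly lose a brake on the cell cycle, either RB1 itself or CDKN2A, whose product p16 keeps the RB protein active by inhibiting CDK4 and CDK6. The RB protein holds E2F factors inactive, and E2F factors switch on the genes of DNA replication. Hydrocortisone acts through the glucocorticoid receptor, NR3C1, a nuclear receptor that switches on a well-known set of metabolic and anti-inflammatory genes and also supports the acute-phase programme.

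The deposited values are log2 levels, so a difference of 1 is 1 step on the log2 scale. 17958 genes had a probe with a single symbol, and the median probe of all arrays lay at 5.27. Array pairs of SUM159PT correlated at 0.9972 to 0.9981 over these genes and array pairs of BT549 at 0.9948 to 0.9969. Between the lines the correlation was 0.894 to 0.8964. MDA231 control arrays correlated with SUM159PT at 0.9161 to 0.9187 and with BT549 at 0.9046 to 0.9107. In the limma fit of all 36 arrays, 9013 genes (50.2%) differed between the lines at a Benjamini-Hochberg adjusted p under 0.05. 4002 of them (22.3%) were higher in SUM159PT and 5011 (27.9%) in BT549. With a difference of 1 or more as a second condition, 3240 genes (18.0%) remained, 1519 higher in SUM159PT (8.46%) and 1721 higher in BT549 (9.58%). The deposited table holds no detection call, and low levels are partly background, so no fold is given for a gene with a line below the median probe, and the order of such differences depends on where that background lies. The last shares above are the background for the counts of list members below. A difference of 3 or more was seen for 343 genes higher in SUM159PT and 188 higher in BT549, and one of 5 or more for 75 and 29. The median difference over all genes was -0.01. It became -0.15 when the arrays were aligned by their medians, and the share of called genes that were higher in BT549 then moved from 55.6% to 67.0%.

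**Figure D1:**
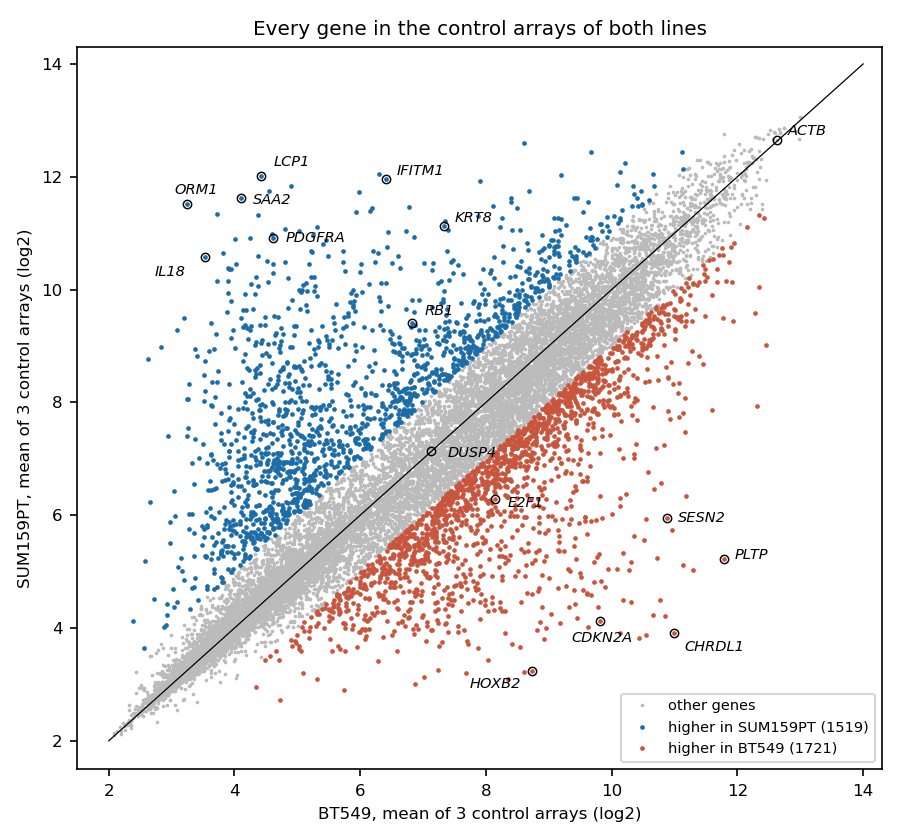
Mean level of each of the 17958 genes in the 3 SUM159PT control arrays (vertical axis, log2) against the 3 BT549 control arrays (horizontal axis, log2), with the line of equal levels. Coloured points passed adjusted p under 0.05 with a difference of 1 or more: 1519 were higher in SUM159PT and 1721 in BT549, and the circled genes are described in the text.

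The labels contradict each other over the line. For 24 of 36 arrays, all those titled SUM159PT or BT549, the title and the cell line field name one of the lines while the source name and the description name the other. The titles were followed here. If the source names were right, every direction below would turn. Genes known to tell the lines apart were therefore read first. BT549 is known to have lost RB1, and the SUM159PT medium alone held hydrocortisone.

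RB1, the cell cycle brake itself, measured 9.41, 9.39 and 9.40 in the arrays titled SUM159PT and 6.71, 7.01 and 6.78 in those titled BT549. All arrays titled BT549 were low, and the MDA231 control arrays averaged 10.31 ± 0.09 (SD, n = 3). The difference was 2.57 ± 0.09 (standard error, SE), or 5.93-fold (adjusted p = 6.3e-22). Over all 12 arrays of each title RB1 lay between 8.96 and 9.55 in SUM159PT and between 6.71 and 8.15 in BT549, without overlap. The BT549 value of 8.03 ± 0.10 (SD, n = 3) under DUSP4 siRNA was the highest of its 4 groups, and the line difference there was 1.47 ± 0.09.

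Glucocorticoid targets pointed the same way as RB1. ZBTB16, a transcription factor strongly induced by glucocorticoids, measured 10.24, 10.16 and 10.26 in SUM159PT against 5.26, 5.42 and 4.97 in BT549, and 5.10 ± 0.13 (SD, n = 3) in MDA231, which was also grown without the hormone. The difference was 5.00 ± 0.15 (adjusted p = 6e-24). MAOA, a mitochondrial amine oxidase, measured 10.93, 11.04 and 11.02 against 4.62, 4.39 and 4.75, a difference of 6.41 ± 0.14 (adjusted p = 6.4e-28). GLUL, which makes glutamine, differed by 5.24 ± 0.18, and CRISPLD2, a secreted protein, by 3.48 ± 0.15. Of 20 measured members of a glucocorticoid response list, 11 were called higher in SUM159PT by 1 or more, 2 higher in BT549, and the median difference was 1.52. KLF9 (3.46 ± 0.10) and TSC22D3 (2.88 ± 0.17), which encodes the anti-inflammatory protein GILZ, belong to the list and are named here after their values were seen. The 2 members higher in BT549 were SGK1, a kinase of ion transport, at -2.45 ± 0.13, and ANGPTL4, an inhibitor of lipoprotein lipase, at -1.11 ± 0.17. The receptor itself was lower in SUM159PT, with NR3C1 at 9.26, 9.33 and 9.33 against 9.63, 10.05 and 9.80. RB1 and the leading hormone targets were thus higher in the arrays titled SUM159PT, the direction that the titles give.

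**Figure D2:**
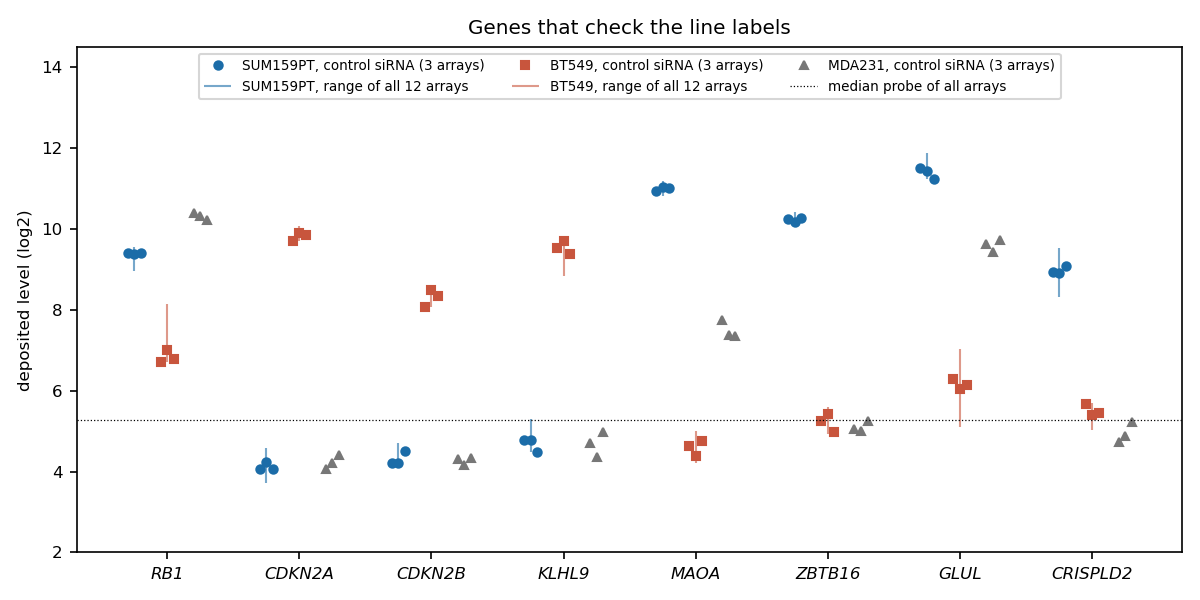
Deposited log2 levels of 8 genes in the 3 control arrays of SUM159PT (circles), BT549 (squares) and MDA231 (triangles), with vertical bars for the range over all 12 arrays of a title and a dotted line at the median probe, 5.27. RB1 and the 4 glucocorticoid targets on the right were higher in every SUM159PT array than in every BT549 array, and CDKN2A, CDKN2B and KLHL9 lower.

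The largest difference at a cell cycle gene lay at 9p21. CDKN2A, which encodes p16 and ARF, measured 4.07, 4.23 and 4.07 in SUM159PT and 9.70, 9.90 and 9.86 in BT549. SUM159PT lay at the level of MDA231 (4.23 ± 0.17), a line known to lack the gene, and the difference was -5.70 ± 0.16 (adjusted p = 7.6e-25). CDKN2B, which encodes the related inhibitor p15, measured 4.22, 4.22 and 4.50 against 8.06, 8.50 and 8.33. KLHL9, a neighbour that encodes an adaptor of a ubiquitin ligase, measured 4.77, 4.78 and 4.49 against 9.54, 9.71 and 9.38. Each of these 3 genes was high in BT549 only. Between KLHL9 and CDKN2A lies MIR31HG, the host transcript of miR-31, at 3.65 ± 0.17 against 7.88 ± 0.28 (SD, n = 3), and MIR31 itself at 3.81 ± 0.09 against 5.52 ± 0.03. Both were named after their values were seen. The mature miRNA of that locus is shown because its host transcript and hairpin differed between the lines inside this region. In RefSeq's GRCh38.p14 it occupies chr9:21512158-21512178 on the minus strand, and the capitals mark its seed, bases 2 to 8.
hsa-miR-31-5p: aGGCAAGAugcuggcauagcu

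Further out the differences were smaller. The means of the interferon genes IFNB1, IFNW1 and IFNA21 lay between 2.95 and 3.47 in both lines, and these genes were not called. On the other side DMRTA1 was not called (-0.24 ± 0.12, adjusted p = 0.11). ELAVL2, the next gene, was lower in SUM159PT by a difference of -1.17 ± 0.17, while CAAP1 (-0.32 ± 0.18) was not called and PLAA (-0.42 ± 0.10) was. Across KLHL9 to CDKN2B the SUM159PT means ran from 3.65 to 5.00, all below the median probe. The interferon genes in that stretch were below it in BT549 as well, with IFNA6 at 3.83, IFNA13 at 5.12, IFNA2 at 3.60, IFNA8 at 3.82 and IFNE at 4.48, and only IFNE was called (-0.79 ± 0.18). Whether the DNA was lost was not measured on these arrays.

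The region of RB1 at 13q14 looked different. ITM2B, the gene before RB1, measured 9.73 ± 0.04 in SUM159PT and 9.46 ± 0.20 in BT549 and was not called (adjusted p = 0.068). MED4, one place further, was higher in BT549 (-0.58 ± 0.13), and LPAR6, which lies in an RB1 intron, was at 5.88 ± 0.29 against 5.34 ± 0.15. SUCLA2, of the citric acid cycle, was higher in SUM159PT by 1.20 ± 0.09. On the other side RCBTB2 was higher in BT549 (-1.13 ± 0.15) and FNDC3A in SUM159PT (0.60 ± 0.11), and further out CAB39L (-1.40 ± 0.16) and RCBTB1 (-1.44 ± 0.13), named after their values were seen, were higher in BT549. Of these neighbours ITM2B, MED4 and SUCLA2 were all at 7.80 or above in both lines. LCP1, which lies 9 measured genes away, had one of the largest differences of all and is described below.

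**Figure D3:**
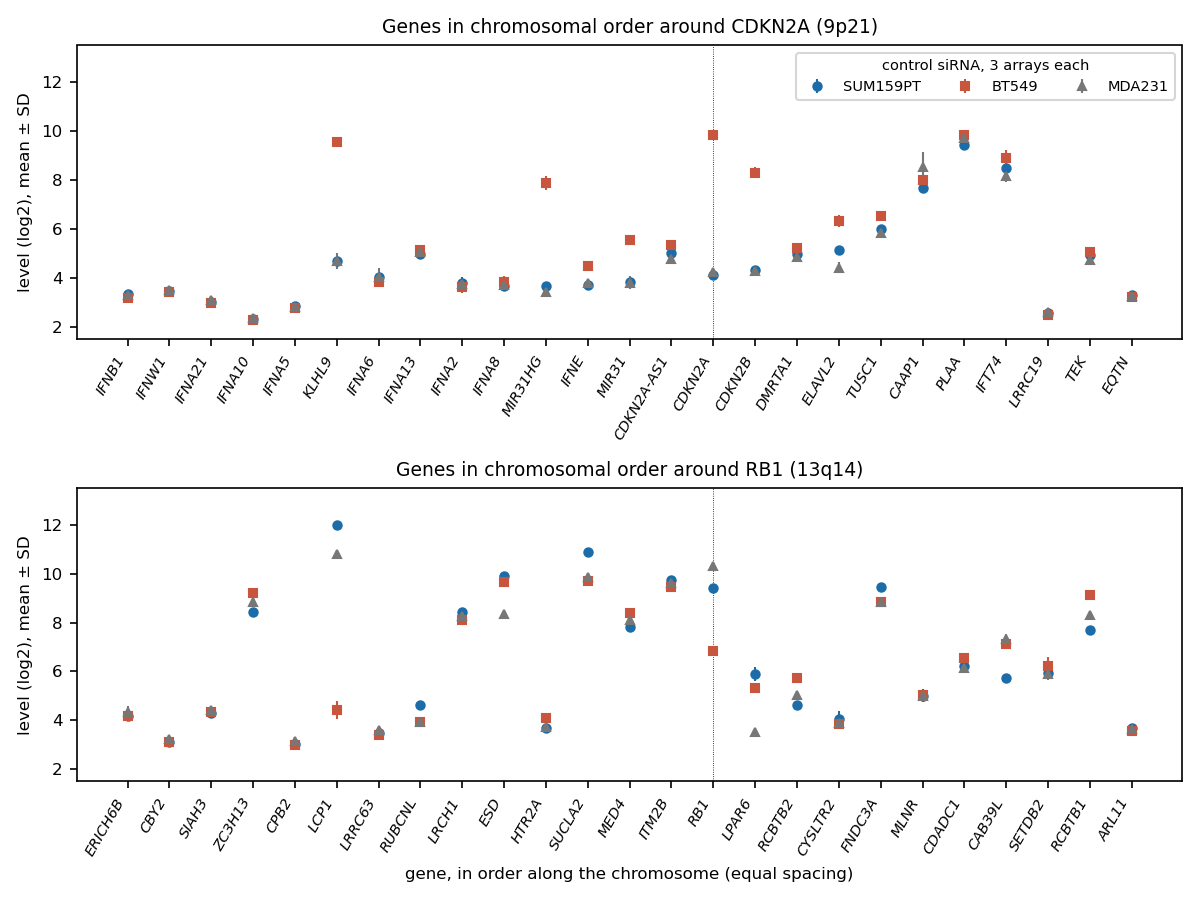
Mean ± SD (n = 3 control arrays a line, log2) of measured genes in chromosomal order, with equal spacing, around CDKN2A (top) and RB1 (bottom). KLHL9, MIR31HG, CDKN2A and CDKN2B were high in BT549 only, whereas around RB1 the neighbours ITM2B and MED4 were expressed in all 3 lines.

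Members of the RB pathway were more often higher in BT549 than in SUM159PT. E2F1, the activator E2F that RB restrains, measured 6.30, 6.27 and 6.31 in SUM159PT and 8.33, 8.08 and 8.02 in BT549. E2F2, its close relative, measured 4.63, 4.50 and 4.66 against 6.45, 6.28 and 6.36. The differences were -1.85 ± 0.17 (adjusted p = 4.2e-11) and -1.77 ± 0.14 (adjusted p = 1.4e-12). All BT549 arrays were above all SUM159PT arrays for both genes. In the opposite direction, SUM159PT had more of the D-type cyclins that drive CDK4 and CDK6: CCND3 by 1.51 ± 0.13, CCND2 by 1.16 ± 0.14 and CCND1 by 0.88 ± 0.12. Of 26 measured members of the RB-E2F list, 3 were higher in SUM159PT and 8 in BT549 by 1 or more, with a median difference of -0.50.

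Most replication genes were higher in BT549 too. CDC6, which loads the replicative helicase, measured 7.71, 7.95 and 7.67 in SUM159PT against 9.08, 9.73 and 9.66 in BT549, a difference of -1.71 ± 0.12 (adjusted p = 5.2e-14). GINS4, a subunit of that helicase's activator, differed by -1.99 ± 0.15, POLA2, a subunit of DNA polymerase alpha, by -1.52 ± 0.11, and MCM10, an initiation factor, by -1.36 ± 0.13. Of 30 measured members of the G1/S and DNA replication list, 22 were called higher in BT549 and 3 higher in SUM159PT at any size. At 1 or more the counts were 9 and 2, with a median difference of -0.63. The 2 higher in SUM159PT were RRM1 (1.22 ± 0.13), of ribonucleotide reductase, and CDT1 (1.16 ± 0.18), the other helicase loader. In the G2/M list 6 of 25 members were higher in BT549 by 1 or more and 0 in SUM159PT. MYBL2, a mitotic regulator that is itself an E2F target, differed by -2.34 ± 0.12, CDC25C, the phosphatase that starts mitosis, by -2.08 ± 0.11, and FOXM1 by -1.41 ± 0.10. These lists keep negative medians under both other scalings that were tried. Growth rate was not measured.

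E2F sites were searched for in RefSeq promoters of GRCh38.p14, from 250 bases before to 50 after each start, on both strands, as TTTCCCGC, TTTGGCGC, TTTCGCGC or TTTGCCGC. Such a match was present in 769 of 13864 measured genes with a promoter in the table (5.55%), in 16 of 27 of the G1/S and DNA replication list (59.3%) and in 5 of 19 of the RB-E2F list (26.3%). Of the genes higher in BT549 by 1 or more, 92 of 1336 (6.89%) held one, and of those higher in SUM159PT 61 of 1169 (5.22%). Of the genes called higher in BT549 at any size, 317 of 3986 held one. In the G2/M list 3 of 19 held one (15.8%). Among list members called higher in BT549 at any size, 12 of 19 held one for G1/S and DNA replication. The counts were 4 of 13 for RB-E2F and 1 of 11 for G2/M. The 120 bases before the start are shown for E2F1, E2F2 and POLA2, with the matches in capitals. These were picked from the members with a match, and all were higher in BT549. CDC6 and CDT1 also hold a match, and CDT1 was higher in SUM159PT. GINS4 and MCM10, higher in BT549, are not among the members with a match. E2F1 has its matches 33 and 20 bases before the start (chr20:33686386-33686505, minus strand), E2F2 one 42 bases before it (chr1:23531234-23531353, minus strand) and POLA2 one 53 bases before it (chr11:65261842-65261961, plus strand). The matches do not overlap. They are letters in a window and not sites shown to be bound.
E2F1: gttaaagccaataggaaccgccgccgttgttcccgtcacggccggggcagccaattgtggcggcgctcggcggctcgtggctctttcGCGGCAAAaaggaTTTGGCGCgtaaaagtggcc
E2F2: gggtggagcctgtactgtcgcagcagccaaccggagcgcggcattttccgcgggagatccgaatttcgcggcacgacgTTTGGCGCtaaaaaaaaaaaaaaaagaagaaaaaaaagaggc
POLA2: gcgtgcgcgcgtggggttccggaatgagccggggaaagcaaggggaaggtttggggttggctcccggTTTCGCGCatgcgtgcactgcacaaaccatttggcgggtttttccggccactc

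Replication-dependent histone genes, a group chosen after their values were seen, were also higher in BT549: 15 of 57 by 1 or more, against 1 in SUM159PT. H1-5, a linker histone, measured 4.66, 4.85 and 4.93 against 9.63, 9.80 and 9.72, a difference of -4.90 ± 0.16. H3C11 (-4.50 ± 0.17) and H2BC14 (-4.20 ± 0.15) came next, and the exception at that size limit was H3C6 at 1.04 ± 0.11. At any size 36 members were called higher in BT549 and 3 higher in SUM159PT, and 18 were not called. Histone genes are close copies of each other, so how the probes divide the signal between them is uncertain.

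Stress-response genes were mostly higher in BT549. SESN2, a sensor that restrains mTORC1 when amino acids run low, measured 5.91, 6.01 and 5.94 in SUM159PT and 10.74, 10.90 and 11 in BT549. The difference was -4.92 ± 0.15, or 30.4-fold (adjusted p = 6.8e-24). ALDH1L2, a mitochondrial folate enzyme, measured 4.52, 4.48 and 4.47 against 9.90, 10.34 and 10.29. GDF15, a secreted stress cytokine, measured 9.04, 9.07 and 8.94 against 12.53, 12.46 and 12.38. In each case the BT549 arrays were higher by over 3 log2 units. Because of these genes a list of the integrated stress response, through which the factor ATF4 adapts cells to amino acid shortage, was added after the values were seen, and it is a description only. Of its 31 members, 23 were higher in BT549 by 1 or more and 1 was higher in SUM159PT (CTH, a cysteine-making enzyme, at 1.16), with a median of -1.68. CHAC1, which degrades glutathione, stood at -4.59 ± 0.20, PSAT1, of serine synthesis, at -3.52 ± 0.13, DDIT3, the factor CHOP, at -3.09 ± 0.11, ASNS, which makes asparagine, at -2.48 ± 0.13, and the leucine importer SLC7A5 at -2.50 ± 0.12. The cystine importer SLC7A11 stood at -2.35 ± 0.11. ATF4 itself differed by only -0.32, and by 0.47 with all its probes averaged.

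SUM159PT stood out for liver-type acute-phase genes. ORM1, which encodes the plasma protein orosomucoid, had the largest measured log2 difference of all 17958 genes. It measured 11.56, 11.49 and 11.48 in SUM159PT, 3.27, 3.13 and 3.34 in BT549 and 3.44 ± 0.33 (SD, n = 3) in MDA231, so that only SUM159PT was high. The difference was 8.26 ± 0.20 (adjusted p = 5.2e-27). SAA2, serum amyloid A, measured 11.64, 11.68 and 11.54 against 4.72, 3.79 and 3.79, with MDA231 between at 7.92. The protease inhibitors SERPINA3 (5.43 ± 0.17) and SERPINA1 (4.57 ± 0.14) were members of a list of plasminogen activators and serpins, in which 7 of 14 members were higher in SUM159PT by 1 or more and 3 in BT549. A list of acute-phase and complement genes was added after these values were seen: 13 of 20 members were higher in SUM159PT by 1 or more, 0 in BT549, and the median difference was 4.27. It includes ceruloplasmin, CP, at 6.31 ± 0.13, the complement component C3 at 5.75 ± 0.12, the endotoxin carrier LBP at 5.71 ± 0.20 and angiotensinogen, AGT, at 5.51 ± 0.13. ORM1 and SAA2 have close copies, ORM2 and SAA1, with which probes may share signal, and SAA1 differed by 5.78 ± 0.20. Some acute-phase genes are known to respond to glucocorticoids, and the part of the hydrocortisone in the SUM159PT medium was not tested.

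Innate immune sensors were higher in SUM159PT as well. IL18, an inflammasome-processed cytokine, measured 10.54, 10.59 and 10.58 against 3.34, 3.59 and 3.66 (7.04 ± 0.15, adjusted p = 5.4e-28). TLR4, the endotoxin receptor, measured 10.30, 10.40 and 10.45 against 3.76, 3.98 and 3.94 (6.49 ± 0.16). MDA231 expressed both, at 9.62 and 9.09, and BT549 was the low line. In a list of inflammasome and interleukin-1 receptor genes, added after the values were seen, 13 of 22 were higher in SUM159PT by 1 or more and 0 in BT549. CASP1, the inflammasome protease, stood at 5.99 ± 0.18, IL1RL1, the receptor of IL-33, at 5.68 ± 0.14 and IL1R2, a decoy receptor, at 5.67 ± 0.12. IL1B was not called (-0.27 ± 0.19, adjusted p = 0.25).

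Interferon-stimulated genes differed in the same direction. IFITM1, a membrane protein that blocks viral entry, measured 12, 11.95 and 11.92 against 6.20, 6.57 and 6.44 (5.55 ± 0.16, 46.8-fold). BST2, which tethers virus particles, measured 9.61, 9.59 and 9.65 against 5.16, 5.02 and 5.27 (4.47 ± 0.15). OASL stood at 2.90 ± 0.13 and SAMD9 at 2.46 ± 0.12. Of 30 measured members, 15 were higher in SUM159PT by 1 or more and 1 in BT549, with a median of 0.92. That one was IFI35 (-1.99 ± 0.14), and the interferon regulatory factors were also higher in BT549, IRF1 with a difference of -0.96 ± 0.16 and IRF9 with one of -0.80 ± 0.11. ERAP2, a peptide-trimming enzyme of antigen presentation, measured 9.07, 9.08 and 8.89 against 4.84, 4.53 and 4.84, while the antigen presentation list as a whole had a median of 0.11 that turned to -0.03 with aligned array medians.

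Secreted cytokines were divided. Of 32 measured chemokines and cytokines, 8 were higher in SUM159PT by 1 or more and 7 in BT549. SUM159PT had more of the interferon-inducible chemokine CXCL11 (8.57, 8.27 and 8.37 against 4.63, 4.52 and 4.55) and of IL1A (2.81 ± 0.16) and CCL20 (2.54 ± 0.20). BT549 had more of LIF, a cytokine of the IL-6 family, at 4.29, 4.53 and 4.51 against 7.92, 8.13 and 8.25 (-3.66 ± 0.17). It also had more of the monocyte attractant CCL2 (-3.17 ± 0.18) and of the neutrophil attractants CXCL5 (-2.77 ± 0.12) and CXCL2 (-2.27 ± 0.15).

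**Figure D4:**
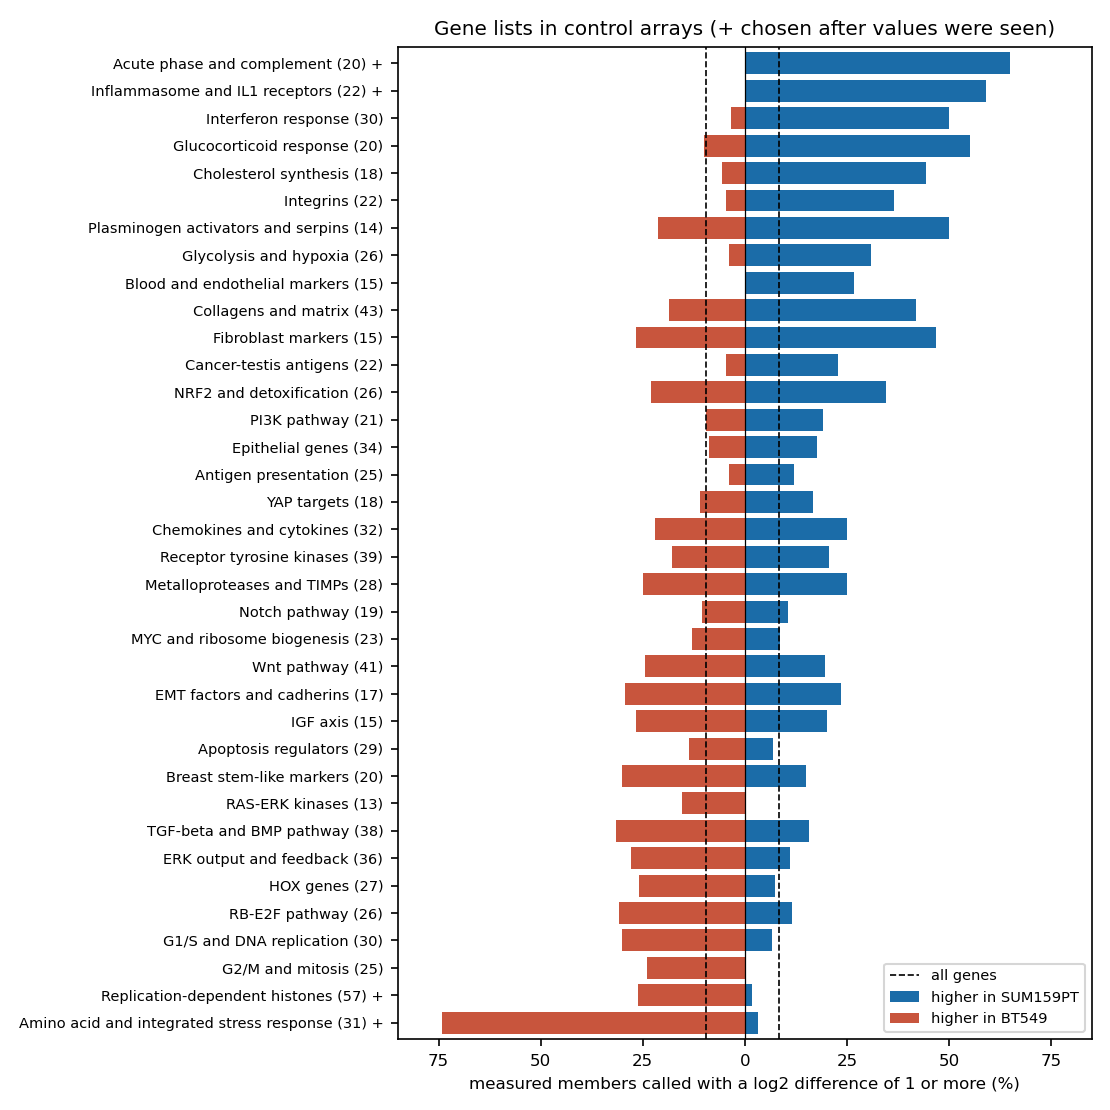
Share of measured members (number in brackets) of the larger gene lists described here that was called with a log2 difference of 1 or more in the control arrays, higher in SUM159PT to the right and higher in BT549 to the left. Dashed lines give the shares over all genes, 8.46% and 9.58%, and a plus marks lists chosen after the values were seen. Lists are ordered by the gap between both shares: acute-phase, inflammasome, interferon and glucocorticoid genes stand at the top and integrated stress response genes at the bottom.

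Growth factor receptors were divided between the lines. PDGFRA, a receptor for platelet-derived growth factor, measured 11.05, 10.85 and 10.86 in SUM159PT and 4.48, 4.75 and 4.62 in BT549 (6.30 ± 0.13, adjusted p = 2.2e-28). PDGFRB, its partner, measured 8.04, 7.89 and 8.22 against 4.32, 4.30 and 4.43. Neither reached the median probe in BT549 or in MDA231, which averaged 4.39 and 4.30. BT549 had more EPHA5, an ephrin receptor (4.77, 4.74 and 4.64 against 8.96, 9.19 and 9.31), NTRK3, a neurotrophin receptor (-3.69 ± 0.19), and DDR2, a receptor for fibrillar collagen (-3.32 ± 0.10). DDR1, its epithelial relative, was higher in SUM159PT by 2.02 ± 0.14. EGFR was expressed in both, at 9.29, 9.11 and 9.23 against 10.93, 10.82 and 10.72, a difference of -1.62 ± 0.10. Of 39 measured receptor tyrosine kinases, 8 were higher in SUM159PT by 1 or more and 7 in BT549.

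Behind the receptors the differences were smaller. In the PI3K list 4 of 21 members were higher in SUM159PT by 1 or more, among them DEPTOR, an mTOR inhibitor (1.58 ± 0.15), and INSR, the insulin receptor (1.28 ± 0.14). MTOR itself (-1.35 ± 0.10) and PIK3CD (-1.30 ± 0.16) were higher in BT549. With aligned medians the 4 became 2. Of 13 measured kinases and regulators of the RAS-ERK cascade, 0 were higher in SUM159PT by 1 or more and 2 in BT549, SOS2 (-1.30) and RASAL2 (-1.18).

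The outputs of ERK leaned towards BT549. FOSL1, an AP-1 factor that ERK stabilises, measured 7.39, 7.38 and 7.45 against 10.27, 9.67 and 9.61 (-2.44 ± 0.16, adjusted p = 9.9e-15). PHLDA1 differed by -2.44 ± 0.12 and HMGA2, a chromatin protein, by -2.13 ± 0.13. Of 36 measured members 10 were higher in BT549 by 1 or more and 4 in SUM159PT, with a median of -0.28. DUSP6, the cytoplasmic ERK phosphatase, is named after its values were seen and measured 7.85, 7.85 and 7.89 against 9.64, 9.64 and 9.55. Of the 4 members higher in SUM159PT by 1 or more, ETV1, an ETS factor induced by ERK, led, at 9.08, 9.19 and 9.17 against 4.11, 4.04 and 3.70 (5.20 ± 0.11). The others were SPRED1, TRIB2 and FOS. DUSP4, the phosphatase the study targets, was alike in both lines before treatment. It measured 7.28, 7.08 and 7.06 in SUM159PT and 7.03, 7.16 and 7.20 in BT549, a difference of 0.01 ± 0.17 (adjusted p = 0.97), whose standard error leaves room for a difference of either sign. MDA231 averaged 10.06, and DUSP4 siRNA lowered the mean level to 5.30 ± 0.02 in SUM159PT and 4.89 ± 0.40 in BT549 (SD, n = 3).

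Extracellular matrix genes leaned towards SUM159PT. DCN, the proteoglycan decorin, measured 10.08, 10.39 and 9.97 against 3.67, 3.76 and 3.77 (6.42 ± 0.11). COL6A3, a chain of the pericellular collagen VI, measured 11.55, 11.38 and 11.38 against 5.91, 6.17 and 6.47 (5.25 ± 0.12). VCAN, the proteoglycan versican, stood at 4.97 ± 0.11 and FBLN1, fibulin 1, at 4.35 ± 0.18. Of 43 measured members, 18 were higher in SUM159PT by 1 or more and 8 in BT549, with a median of 0.56. BT549 had more tenascin C, TNC (9.13, 8.78 and 8.84 against 11.32, 11.31 and 11.21), nidogen 2, NID2 (-2.31 ± 0.17), and COL3A1 (-1.73). Integrins, the cell's matrix receptors, were higher in SUM159PT for 8 of 22 members and in BT549 for 1. ITGB8, which activates latent TGF-beta, led with 3.04 ± 0.17, and ITGA6, a laminin receptor chain, was the one higher in BT549 (-1.09).

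Matrix proteases were evenly divided, with 7 of 28 members higher in each line by 1 or more. TIMP3, a metalloprotease inhibitor held in the matrix, measured 9.02, 8.87 and 9.04 against 4.92, 4.65 and 5.11 (4.08 ± 0.18). The membrane protease MMP16 (-3.12 ± 0.13) and the collagenase MMP1 (-2.13 ± 0.16) were higher in BT549. The plasminogen activators went opposite ways: PLAT, the tissue type, measured 10.48, 10.42 and 10.45 against 6.0, 6.01 and 6.05, and PLAU, the urokinase type, 7.16, 7.10 and 7.08 against 10.06, 9.72 and 9.68. MDA231 expressed both, at 12.04 and 10.75.

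Both lines had a mesenchymal pattern, by different members. VIM, the mesenchymal filament protein, was at 11.98 to 12 in SUM159PT and 11.85 to 11.96 in BT549 (0.10 ± 0.07, adjusted p = 0.27). CDH1, the epithelial cadherin, stayed below the median probe in all but 1 of the 6 arrays, at 4.37, 4.29 and 4.04 against 4.71, 5.05 and 5.35. Among EMT factors SUM159PT had more SNAI1 (2.46 ± 0.16) and SNAI2 (1.86 ± 0.16), and BT549 more PRRX1 (-2.45 ± 0.15) and TWIST1 (-1.35 ± 0.11). Among cadherins SUM159PT had more CDH2, N-cadherin (10.68, 10.65 and 10.67 against 8.87, 8.80 and 8.85). BT549 had more CDH3, P-cadherin (5.69, 5.68 and 5.51 against 10.38, 10.39 and 10.29), and CDH11, the cadherin of osteoblasts and fibroblasts (7.07, 7.07 and 6.87 against 10.41, 10.37 and 10.30). MDA231 resembled BT549 in CDH11 (11) and neither line in CDH2 (5.71).

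Some epithelial genes set SUM159PT apart all the same. DSG2, a desmosomal cadherin, measured 10.49, 10.44 and 10.43 against 4.22, 3.91 and 3.97 (6.42 ± 0.13). The simple-epithelium keratins KRT8 (11.16, 11.10 and 11.09 against 7.28, 7.30 and 7.43), KRT7 (3.31 ± 0.17) and KRT18 (1.45 ± 0.12) were higher too. BT549 had more of the tight junction protein CLDN1 (-2.69 ± 0.15) and the mucin MUC1 (-2.36). Of 34 measured members 6 were higher in SUM159PT by 1 or more and 3 in BT549. The epithelial and luminal markers EPCAM, CLDN3, ESR1 and PGR ranged from 3.44 to 5.62 in both lines. Other members were higher: 17 of the 34 epithelial genes lay above the median probe in SUM159PT and 13 in BT549. Of the 12 luminal markers 5 did so in each line. By 1 or more, 2 of the 12 luminal markers were higher in SUM159PT, the keratins KRT8 and KRT18 given above, and 1 in BT549. That member was GATA3, a luminal transcription factor (6.28, 6.55 and 6.43 against 8.88, 8.29 and 8.33).

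Markers of other cell types were read as a check on the cultures. The summed log2 level of 15 blood and endothelial markers was 78.0 to 78.8 in SUM159PT and 68.3 to 69.5 in BT549. 5 of them lay above the median probe in SUM159PT and 1 in BT549. The 4 called by 1 or more, all higher in SUM159PT, were KDR (2.47 ± 0.15), CD14 (2.43 ± 0.21), PECAM1 (2.37 ± 0.14) and PTPRC, the CD45 antigen (5.63, 5.86 and 5.76 against 3.82, 3.75 and 3.93). The defining T cell, platelet-endothelial and red cell genes CD3D, VWF and HBB lay between 3.29 and 4.20 in all 6 arrays. LCP1, the actin bundler L-plastin known from white blood cells, measured 12.05, 12 and 11.98 against 4.35, 4.10 and 4.82 (7.59 ± 0.14). MDA231 expressed it as well, at 10.79. Of 15 fibroblast markers 7 were higher in SUM159PT by 1 or more and 4 in BT549, with summed levels of 105.5 to 106.7 and 87.8 to 89.3. THY1, a surface marker of fibroblasts, went against PDGFRA and DCN, with 4.39, 4.48 and 4.51 against 10.63, 10.12 and 10.16. The part of other cells in these values was not tested, and in bulk RNA more expressing cells and more RNA per cell cannot be told apart.

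Signalling pathways of development differed by single ligands, receptors and inhibitors. CHRDL1, a secreted BMP antagonist, had the largest measured log2 difference in favour of BT549 of all 17958 genes. It measured 4.10, 3.65 and 4.00 against 11.10, 10.93 and 10.94 (-7.07 ± 0.16, adjusted p = 2.6e-27), and MDA231 expressed it at 9.90. BMP7, a BMP ligand, was also higher in BT549 (-3.53 ± 0.16), as were the pseudoreceptor BAMBI (-2.83 ± 0.21) and GDF15. TGFBI, a matrix protein induced by TGF-beta, was higher in SUM159PT (12.49, 12.47 and 12.38 against 9.56, 9.72 and 9.73), with the ligands TGFB2 (1.78) and TGFB3 (1.42). Of 38 measured members of the TGF-beta and BMP list 12 were higher in BT549 by 1 or more and 6 in SUM159PT.

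Wnt receptors and antagonists were traded between the lines. SUM159PT had more of the receptor FZD3 (7.93, 7.92 and 7.82 against 4.05, 4.17 and 3.94) and of the antagonist DKK1 (9.21, 9.26 and 9.36 against 6.20, 5.45 and 5.14). BT549 had more of the receptor FZD8 (-3.88 ± 0.20) and of the antagonists SFRP2 (-3.81 ± 0.12) and SFRP1 (-2.31). In the Notch list the ligand JAG1 was higher in SUM159PT (9.27, 9.15 and 9.29 against 4.37, 4.75 and 4.86). The Notch targets were split, HEY1 being higher in BT549 (5.01, 5.00 and 5.14 against 9.30, 9.21 and 9.38) and HES1 in SUM159PT (1.96 ± 0.14). Of 41 Wnt members 8 and 10 were higher by 1 or more in SUM159PT and BT549, and of 19 Notch members 2 and 2.

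Positional genes of the HOX clusters were more often higher in BT549. HOXB2 measured 3.18, 3.18 and 3.37 in SUM159PT and 8.81, 8.63 and 8.76 in BT549 (-5.49 ± 0.10), and the neighbours HOXB3 (-1.79), HOXB4 (-1.81) and HOXB6 (-1.67) were higher in BT549 too. Of 27 measured HOX genes 7 were higher in BT549 by 1 or more and 2 in SUM159PT, HOXC10 (1.45) and HOXC13 (1.02). IGF2BP3, a fetal RNA-binding protein, was at 3.78, 3.97 and 4.28 against 9.44, 9.76 and 9.67. Of 20 stem-like markers 3 were higher in SUM159PT by 1 or more and 6 in BT549, with a median of -0.02. ALDH1A3, which makes retinoic acid and accounts for much ALDH activity in breast cancer cells, was at 5.72, 5.96 and 6.01 against 9.64, 9.67 and 9.71 (-3.78 ± 0.10). CD44 was high in both (12.01 to 12.08 and 12.05 to 12.19) and CD24 was at 7.45 to 7.69 and 7.57 to 7.66. Neither was called. MME, the peptidase CD10 of basal cells, was higher in SUM159PT (2.64 ± 0.18), as was ALDH1A1, a relative of ALDH1A3 (1.46 ± 0.15). Cancer-testis antigens were higher in SUM159PT for 5 of 22 members by 1 or more, led by MAGEC2 (10.44, 10.46 and 10.46 against 4.56, 4.35 and 4.91), and PRAME was the one higher in BT549 (-2.08 ± 0.17).

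Metabolic genes also took sides. Cholesterol synthesis was higher in SUM159PT: 8 of 18 measured members by 1 or more, 1 in BT549, and a median of 0.93. INSIG1, the sterol sensor that is itself a target of SREBP2, measured 10.33, 10.32 and 10.37 against 8.02, 8.08 and 8.13 (2.26 ± 0.14). HMGCS1, the enzyme before HMG-CoA reductase, measured 10.08, 10.15 and 10.14 against 8.0, 7.85 and 7.88 (2.21 ± 0.12). PMVK, a later enzyme of the same path, was the one higher in BT549 (-1.02 ± 0.10). The SUM159PT medium held 5% serum and that of BT549 10%, and its part in these values was not tested.

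In the glycolysis and hypoxia list 8 of 26 members were higher in SUM159PT by 1 or more and 1 in BT549 (ENO2, -1.60). SLC2A3, the high-affinity glucose transporter, measured 9.95, 9.98 and 9.96 against 4.85, 5.15 and 5.18 (4.90 ± 0.15). The hypoxia-inducible genes NDRG1 (3.79 ± 0.13), EGLN3, a prolyl hydroxylase of HIF (3.80 ± 0.16), and ALDOC, an aldolase (3.83 ± 0.15), came with it. Detoxifying enzymes diverged, 9 of 26 members higher in SUM159PT and 6 in BT549. The aldo-keto reductases AKR1C3 (10.17, 10.15 and 10.28 against 4.64, 4.79 and 5.10) and AKR1C1 (5.30 ± 0.16) were high in SUM159PT. CYP1B1, which oxidises estrogens and aromatic hydrocarbons (6.29, 6.43 and 6.29 against 10.81, 11.40 and 11.33), and the glutathione transferase GSTM3 (-4.39 ± 0.16) were high in BT549. The AKR1C genes are close copies, so their probes may share signal.

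Binding proteins of the insulin-like growth factors went opposite ways, IGFBP7 being higher in SUM159PT (10.14, 10.09 and 10.05 against 6.10, 6.39 and 5.94) and IGFBP3 in BT549 (7.03, 7.28 and 7.20 against 10.16, 10.13 and 10.05). F3, tissue factor, was higher in SUM159PT by 4.14 ± 0.17 and was the leading member of a YAP target list in which 3 of 18 were higher in SUM159PT by 1 or more and 2 in BT549. Of 29 apoptosis regulators 2 were higher in SUM159PT by 1 or more and 4 in BT549, and with aligned array medians 2 and 8. The decoy receptor TNFRSF10D (2.80 ± 0.16) led in SUM159PT and PMAIP1, the BH3-only protein NOXA (-1.48 ± 0.17), in BT549. Of 23 MYC and ribosome biogenesis genes 2 were higher in SUM159PT by 1 or more and 3 in BT549, and with aligned medians 1 and 6. Of 11 housekeeping genes 0 were called by 1 or more in either direction. At any size 3 were called higher in SUM159PT and 0 in BT549, and the highest difference in the list was 0.91. ACTB measured 12.75, 12.61 and 12.64 against 12.71, 12.60 and 12.59.

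Several of the largest differences lay outside the groups above. Higher in SUM159PT were the intestinal protease TMPRSS15 (11.31, 11.33 and 11.37 against 3.78, 3.60 and 3.82), the serpin SERPINB3 (7.19 ± 0.18), the glycosyltransferase GALNT15 (6.95 ± 0.13), the embryonic globin HBE1 (11.87, 11.82 and 11.79 against 4.74, 5.12 and 4.83), the muscle protein MYBPC1 (6.89 ± 0.12) and the orphan receptor tyrosine kinase ROS1 (10.64, 10.63 and 10.64 against 3.90, 3.70 and 3.82). EDIL3, an integrin ligand, CPED1 and the selenium carrier SELENOP differed by 6.68, 6.44 and 6.42. Higher in BT549 were PLTP, which transfers phospholipids between lipoproteins (5.11, 5.17 and 5.42 against 11.78, 11.78 and 11.80), the tetraspanin TSPAN5 (-6.63 ± 0.14), SYT14 (-6.61 ± 0.15), PLBD1 (-6.42 ± 0.18), the liver glycogen phosphorylase PYGL (-6.27 ± 0.11), NIBAN1 (-6.26 ± 0.10), ADAMTSL1 (-6.22 ± 0.15), the peroxidase PXDN, which crosslinks collagen IV (-6.03 ± 0.11), and the antisense transcript ZNF667-AS1 (-6.66 ± 0.17). PLBD1 and ADAMTSL1 were named after their values were seen. The arrays did not mix for any gene given here with all its values: each array of the higher line was above each array of the other, except for DUSP4 and ACTB.

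The other 9 arrays of each line share no sample with this comparison, and the line difference was measured in them again. Of the 3240 genes called by 1 or more in the control arrays, 2646 were called by 1 or more in the same direction under DUSP4 siRNA, 81.7% of the control list and 79.8% of the 3314 genes called there (18.5%, with 9.09% of all genes higher in SUM159PT and 9.37% in BT549). Under 4 h of selumetinib 2838 were shared, 87.6% of the control list and 85.3% of 3329 (18.5%, in the same order 7.46% and 11.1%). After 24 h 2696 were shared, 83.2% and 83.7% of 3221 (17.9%, or 9.84% and 8.10%). In none of these were genes called in opposite directions at that size, and 3235, 3240 and 3236 of the 3240 kept the sign of their difference. The share over all genes was 77.4%, 83.6% and 79.1%. 2249 genes (69.4%) passed in all 4 treatments, 1140 higher in SUM159PT and 1109 in BT549. ORM1 differed by 8.16, 7.85 and 8.40 in the 3 other treatments, MAOA by 6.16, 6.48 and 6.35, CDKN2A by -6.10, -5.47 and -5.72, and SESN2 by -4.93, -4.72 and -4.40. The replicate arrays of different treatments may still share cultures or processing days, which the labels do not give. Array A of BT549 after 24 h of selumetinib had an upper quartile of 7.5, against 7.9 and 7.93 in B and C. Its mean correlation with its group was 0.9863, against 0.9912 and 0.9918 for B and C. The part of that array in the 24 h values here and below was not tested.

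Some line differences nonetheless depended on treatment. An F test of the interaction in the same fit called 3257 genes (18.1%), and 1073 of the 3240 genes above (33.1%). Compared with the control arrays, the difference had moved by 1 or more with an adjusted p under 0.05 for 194 genes under DUSP4 siRNA (1.08%), 23 after 4 h of selumetinib (0.128%) and 80 after 24 h (0.445%). Under DUSP4 siRNA the E2F2 difference widened from -1.77 to -3.25 and that of MCM10 from -1.36 to -2.47, while that of RB1 narrowed from 2.57 to 1.47, CDH3 from -4.73 to -3.36, CHRDL1 from -7.07 to -5.46 and PDGFRB from 3.70 to 2.46. OASL widened from 2.90 to 4.53. Under selumetinib DUSP6 widened from -1.75 to -3.06 at 4 h and -3.07 at 24 h. Its mean in SUM159PT was 4.95 ± 0.20 at 4 h and 5.58 ± 0.26 at 24 h, and in BT549 8.01 ± 0.59 and 8.65 ± 0.37 (SD, n = 3). ETV1 narrowed from 5.20 to 3.65 after 24 h. Among the 3240 genes, ST6GALNAC3, a sialyltransferase, was the only one called at any size in the opposite direction under another treatment, and it was named by that search. Of all genes 53.1% were called at any size under DUSP4 siRNA, 58.7% after 4 h of selumetinib and 52.6% after 24 h. ST6GALNAC3 had a control difference of -1.05 ± 0.18 and one of 0.76 under DUSP4 siRNA, where its BT549 mean was 6.12 ± 0.15 against 7.92 ± 0.47 in the control arrays.

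**Figure D5:**
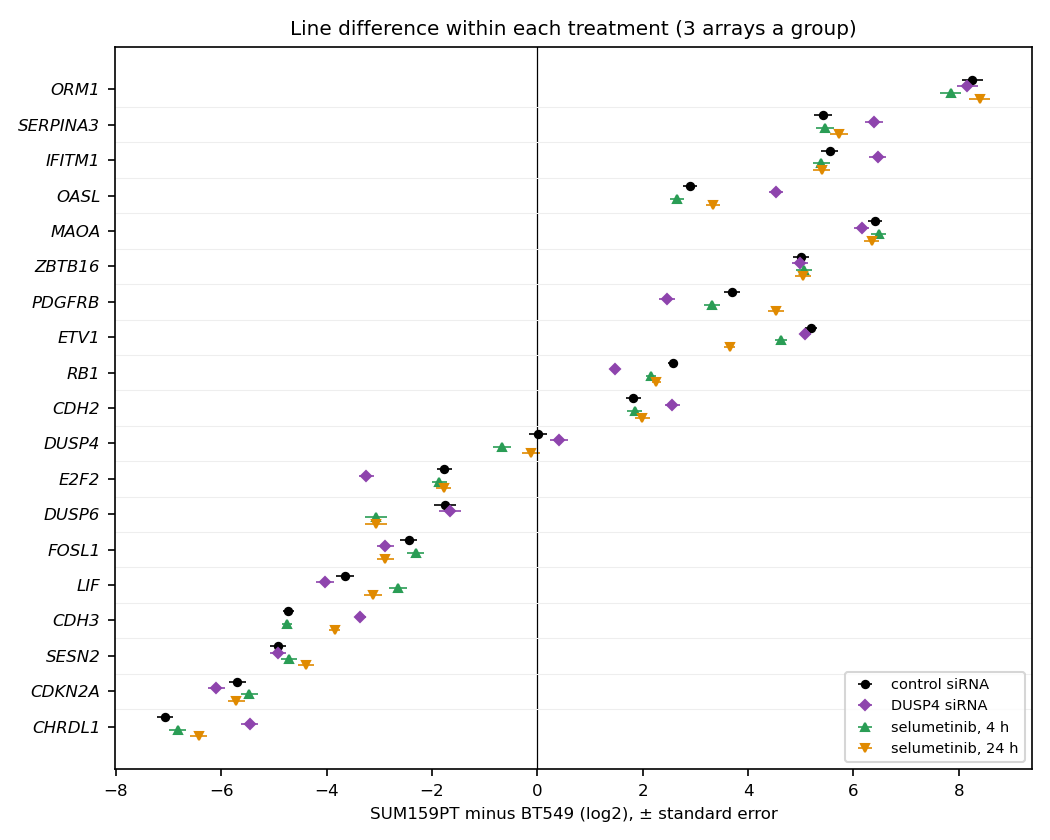
Difference SUM159PT minus BT549 (log2, ± standard error, 3 arrays a group) for 19 genes within control siRNA, DUSP4 siRNA and selumetinib for 4 and 24 h. All genes shown except DUSP4 keep their side of 0 in all 4 treatments, and OASL, PDGFRB, RB1, E2F2, CDH3 and CHRDL1 are the ones whose DUSP4 siRNA value lies 1 or more from the control value.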

How the data were processed

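36 RNA samples were labelled by whole-transcript sense labelling and hybridised to 1 array each. The authors deposited 1 table of log2 values, produced, per the submitters' processing notes, by the RMA method of Expression Console 1.1, Affymetrix software. RMA subtracts background, makes the arrays' distributions alike and summarises the probes of a set. The genome build and summarisation options were not given in the sources used here. Such scaling hides a change in total RNA, and low values carry background, so the levels of named genes were not compared with each other, the median probe serves only as a mark of low signal, and the number of arrays limits the precision.

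Of 33297 probes, 19181 had a single symbol, 2055 several and 12061 none in the platform's annotation. 19143 of the single-symbol probes matched a RefSeq gene by gene ID, and 0 symbols needed updating. For the 895 genes with several such probes, the probe of highest mean level across the 36 arrays stood for the gene, leaving 17958 genes. Groups were taken from the titles. With limma 3.58.1, run in R 4.3.3, a linear model of 12 group means took in all 36 arrays (24 residual degrees of freedom), and the differences between lines and an F test of their variation over treatments were read from it. p-values were adjusted by Benjamini-Hochberg over all genes of a comparison. The threshold was 0.05, alone or with a difference of 1 or more. The method was tested on simulated data.

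The comparison, its gene lists and tests were chosen with earlier results of these data known. The rule for named genes takes the 15 largest called differences in each direction, leaving out unnamed loci and small RNAs, the 4 largest called differences in each direction of each list, and all members of the label check, chromosomal neighbour and housekeeping lists. Genes of the stress response, acute-phase, inflammasome and histone lists, the epithelial, blood and interferon genes given only as ranges, and DUSP4, DUSP6, VIM, CD44 and CD24 lie outside the rule and were named after their values were seen. Alternatives were the 6 or 24 arrays alone, a filter on dim genes, aligned array medians, quantile normalization done once more, a replicate block, the mean of all single-symbol probes, and leaving out each control array in turn. Promoter and miRNA sequences come from RefSeq's tables for GRCh38.p14, and 13864 of the 17958 genes had a promoter there. Some genes and gene lists are not reported here.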

Additional observations from a re-analysis of the deposited data

Results flagged for a closer look

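The difference between the lines depended on treatment for 3257 genes by the F test of the interaction. For genes named above, each value here is the difference SUM159PT minus BT549 under a treatment minus that in the control arrays, on the log2 scale, where it was 1 or more in size with an adjusted p under 0.05 in limma. What lies behind these changes was not tested.

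Under DUSP4 siRNA the difference moved towards BT549 for the cell cycle genes E2F2 (-1.48), MCM10 (-1.11), RRM1 (-1.11) and RB1 (-1.10). It moved the same way for PDGFRB (-1.24), IGFBP3 (-1.34), ITGB8 (-1.12), GDF15 (-1.09) and ALDOC (-1.0). It moved towards SUM159PT for ST6GALNAC3 (1.80), the BMP antagonist CHRDL1 (1.62), the EMT factor PRRX1 (1.57) and P-cadherin CDH3 (1.37). The Wnt antagonist SFRP2 (1.16), TGFBI (1.06), THY1 (1.04) and DEPTOR (1.01) did the same, as did the innate immune genes OASL (1.62), C3 (1.03) and IFI35 (1.01).

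Under selumetinib the difference in DUSP6 moved by -1.31 at 4 h and -1.32 at 24 h, and that in CCL20 by -1.64 and -2.48. After 24 h it moved by -1.55 for ETV1, -1.29 for GDF15, -1.10 for IL1A, -1.10 for TIMP3 and -1.0 for F3. It moved towards SUM159PT by 1.31 for CD24.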

How the results depend on the processing

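Against 9013 genes called at an adjusted p under 0.05, the alternatives gave 8492 (filter on dim genes, 12042 genes tested) to 10030 (the 6 arrays alone), and leaving out each control array gave 8355 to 8593. Against 3240 genes with a difference of 1 or more they gave 3129 to 3453, and 3201 to 3280 without each array. The labels do not say what the replicate letters mark. Deviations from the group means correlated between same-letter arrays of both lines at 0.042, -0.004 and -0.131. Between arrays of other letters they correlated at -0.14 to 0.122. With the replicate block 8954 and 3240 genes were called. Aligning the array medians moved the share higher in BT549 to 67.0% of all calls (3198 and 6502 genes) and to 61.7% of those of 1 or more (1324 and 2129), and repeated quantile normalization moved the latter to 49.4%. With aligned medians, list medians turned for the PI3K pathway (0.01 to -0.13), EMT factors and cadherins (0.10 to -0.04, and -0.02 with repeated quantile normalization), antigen presentation (0.11 to -0.03), housekeeping genes (0.10 to -0.04) and blood markers (0.08 to -0.06), and antigen presentation genes of 1 or more went from 3 and 1 (higher in SUM159PT and BT549) to 1 and 4. Interferon genes higher in BT549 then went from 1 to 2, HOX genes higher in SUM159PT from 2 to 1 and histone genes higher in SUM159PT from 1 to 0. With repeated quantile normalization the antigen presentation and cholesterol genes higher in BT549 went from 1 to 0 each, and RAS-ERK kinases higher in SUM159PT from 0 to 1. The Notch median went from -0.12 to 0.31 with the filter, and the apoptosis median from -0.01 to 0.02 with repeated quantile normalization. Genes varying with treatment numbered 2984 with the block and 4884 with 24 arrays, against 3257. Among the single genes, only ATF4 turned, from -0.32 to 0.47, with the mean of all its probes. The causes were not tested.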
